A study of Homo sapiens with 8 samples.

Results

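The nucleolar ribosome biogenesis factors are 42 genes whose proteins transcribe ribosomal RNA (rRNA), modify and cut it, and fold it into pre-ribosomes. They were chosen by gene symbol, and all 42 were found once among the 60651 genes of the deposited table. Their footprint levels come from Ribo-seq, in which the mRNA pieces that ribosomes shield from nuclease are sequenced. The cells were IMR32, an established human neuroblastoma line with amplified MYCN, labelled as wild type, with brain as the tissue and neuroblast as the cell type. In 4 libraries the cells had received CR31B, an analogue of silvestrol that inhibits the RNA helicase eIF4A, and in the other 4 they had received DMSO, the solvent. Treatment lasted 6 h in both groups, and cycloheximide, which stalls elongating ribosomes, was given to all cells before harvest. The dose of CR31B is not given in the sources used here. The series calls the libraries biological replicates, and all of them come from 1 cell line.

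Ribosomes are built in the nucleolus, where RNA polymerase I makes a long precursor of rRNA. Small nucleolar ribonucleoproteins (snoRNPs) guide its chemical modification, and large assemblies of proteins then shape the precursors of the small and the large subunit. Many of the genes are activated by the MYC family of transcription factors, to which MYCN belongs. Rocaglates such as silvestrol clamp eIF4A onto purine-rich mRNA and thereby block the scanning of 5′ leaders.

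Values are TPM, shares of all transcripts scaled by length. They are scaled to the same total in every library, so a general fall or rise of footprints after CR31B cannot be seen. Higher or lower here means a larger or smaller share, and a larger share can go with fewer footprints per cell. Footprints come from coding sequence, and whether the length used includes untranslated parts is not given in the sources used here, so levels of different genes compare only roughly. A footprint level combines the amount of an mRNA with the number of ribosomes on it, and these cannot be told apart here, nor can fewer cells be told from less RNA per cell. Fold changes are differences of mean log2(TPM + 1), CR31B minus DMSO, from a limma fit over the 11778 genes whose mean reached 1 TPM. A change was called at an adjusted p under 0.05, with Benjamini-Hochberg adjustment over all 11778 genes. All 42 members passed the filter on low values.

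Genes above 0 numbered from 17857 to 19758 in the CR31B libraries and from 19043 to 22270 in the DMSO libraries. The number of reads is not given by TPM values, so whether depth differed between the groups cannot be told. The protein-coding share of TPM ran from 51.79% to 52.3% in CR31B replicates 2 to 4, 61.3% in CR31B replicate 1, and from 52.05% to 58.42% in DMSO. Among markers of adrenergic neuroblastoma, PHOX2A, HAND2, GATA3, ISL1, DBH and CHGA had means over the 8 libraries from 32.22 to 226.3 TPM, while TH stood at 0.908 TPM. Of these, HAND2 was called without the replicate block, at 271.2 ± 32.21 TPM with CR31B and 181.3 ± 16.5 TPM with DMSO (SD over 4 libraries each; log2 fold change 0.58, limma adjusted p of 0.01878), and its part in the results was not tested. With the replicate number as a block, DBH was called lower too (log2 fold change -0.43, limma adjusted p of 0.02896), as was the stromal COL1A1 (-0.41, 0.04724). Defining markers of leukocytes (PTPRC) and epithelia (EPCAM, KRT8, KRT18) did not exceed 0.28 TPM in any library, nor did the stromal COL1A2 and COL3A1, while COL1A1 ranged from 5.28 to 16.13 TPM and VIM from 101.5 to 155.7 TPM. MYCN, a gene outside the set, was at 891.4 ± 229.8 TPM with CR31B and 593.2 ± 55.87 TPM with DMSO (SD over 4 libraries each), with a limma adjusted p of 0.1104 and of 0.03006 with the replicate number as a block.

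Most nucleolar factors lay slightly higher after CR31B, and few rose beyond the spread between libraries. Of the 42 members, 4 were called higher (POLR1A, UTP20, RRS1 and NOB1) and 0 lower by limma, while 7.46% of all genes tested were called, 3.45% higher and 4.02% lower. At an unadjusted p under 0.05, 6 members were higher and 1 was lower, against 12.0% and 11.3% of all genes tested. In this fit, on treatment alone, the members' share of higher genes by that measure was near that of all genes. The log2 fold change was above 0 for 37 of the 42, against 54.1% of all genes tested. The median of the members was 0.19 (quartiles 0.095 and 0.26), a level 1.14 times that in DMSO, and the median of all genes tested was 0.029. After rescaling over protein-coding genes, 5 members were called higher (6.45% of the 10382 genes so tested) and 39 estimates were above 0 (58.5%). At an unadjusted p under 0.05, 16 members were then higher, against 1700 of those 10382 genes. When the fit was blocked by replicate, 11 members were higher at that p, against 1844 of 11778 genes. Without the trend it was 5 against 1405, and without CR31B replicate 1 it was 5 against 1146. Whether the members' share was near that of all genes thus depended on the setting.

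Groups of libraries did not overlap for 7 members that were higher in CR31B and for 1 that was lower, against 8.07% and 8.14% of all genes tested. Libraries with the same replicate number deviated together for numbers 1 to 3 (r from 0.30 to 0.33). For number 4 the r was 0.105, no higher than for CR31B replicate 4 with DMSO replicate 1 (0.134). In 4 of 4 same-numbered pairs, 16 members were higher in CR31B, against 20.1% of all genes tested. FBL alone among the members was lower in 4 of 4 pairs, against 18.0% of all genes tested. Within pairs 1 to 4, the median difference of the members was 0.32, 0.27, 0.15 and 0.042 on the log2 scale. The median over all genes tested in the same pairs was 0.085, -0.017, 0.078 and -0.053. Thus the members' median lay above that of all genes in each pair, by the least in pairs 3 and 4. With the replicate number as a block the same 4 members were called, while over all genes 680 were called higher and 773 lower, against 406 and 473 without it (5.77% and 6.56% of genes with the block).

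**Figure D1:**
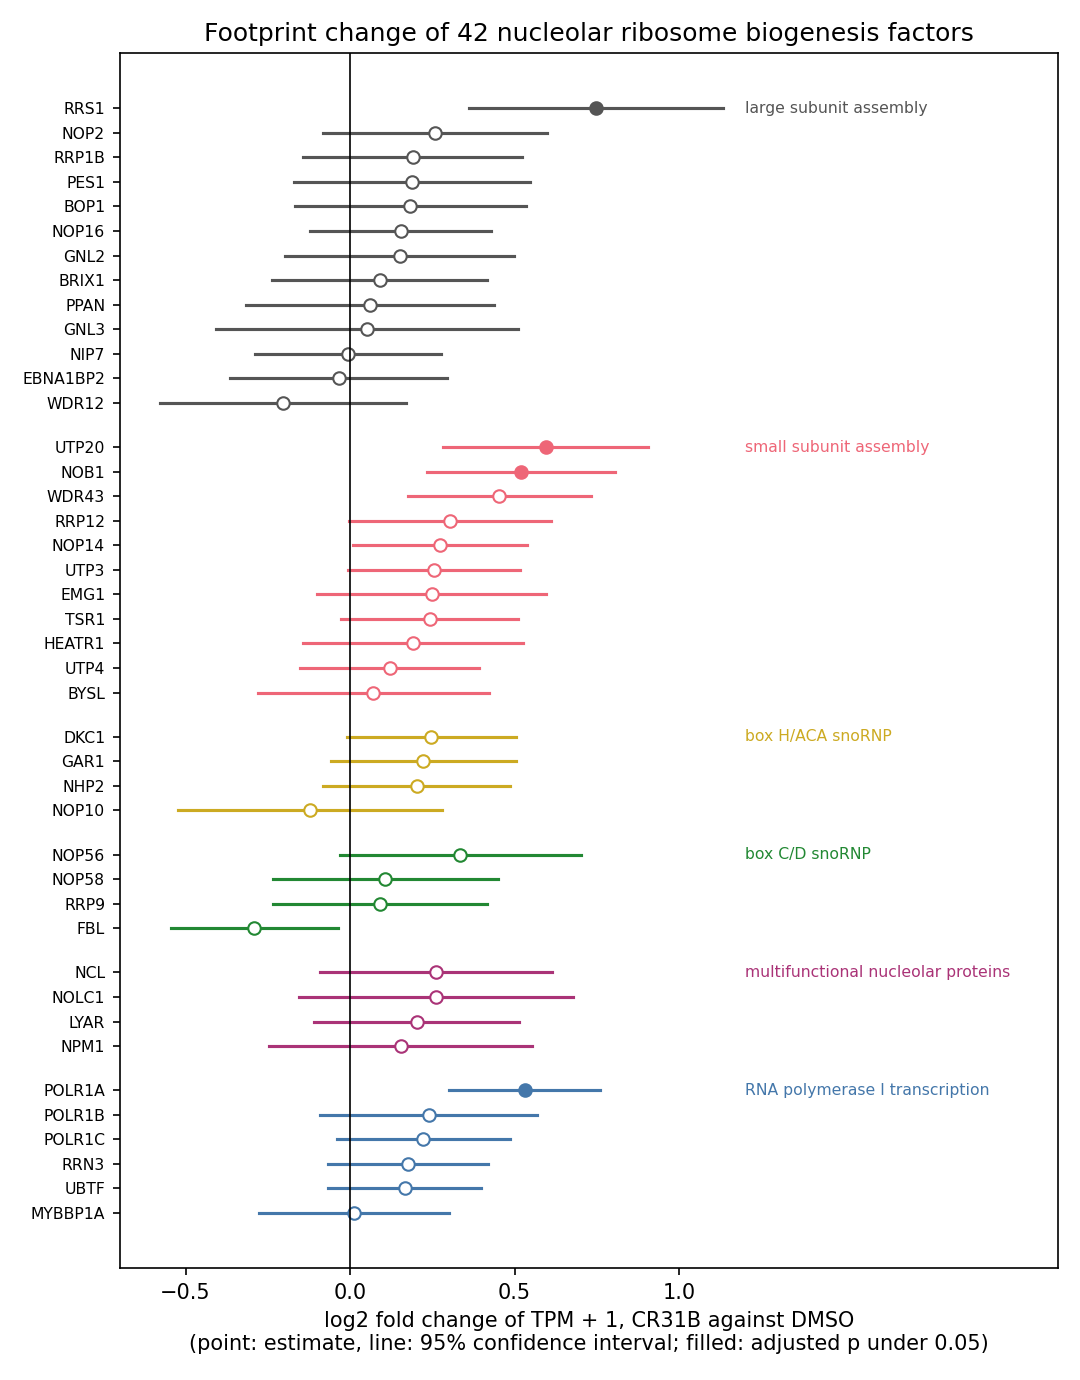
Log2 fold change of TPM + 1 (x axis, CR31B against DMSO) for each of the 42 members (y axis, grouped by role); points are limma estimates, lines 95% confidence intervals, and filled points have an adjusted p under 0.05. Of the 42 estimates, 37 lie to the right of 0, and the 4 filled points are POLR1A, NOB1, UTP20 and RRS1.

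Transcription of rRNA was represented by 6 members, of which 1 was called. POLR1A (ENSG00000068654.16, chr2:86020216-86106155, minus strand, GRCh38), the largest subunit of RNA polymerase I and part of its catalytic centre, was at 40.46, 40.27, 43.92 and 37.19 TPM in the CR31B libraries (1 to 4). In the DMSO libraries (1 to 4) it was at 27.34, 27.18, 26.08 and 30.16 TPM. Every CR31B library lay above every DMSO library, with little spread in either group. Its difference on the log2 scale was 0.53 (SE 0.10, 95% interval from 0.30 to 0.76, limma adjusted p of 0.01373), or 1.45-fold, and POLR1A was the one member called under all 16 alternative settings.

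The other polymerase I genes had positive estimates that were not called. POLR1B, which forms the catalytic centre with POLR1A, had a log2 fold change of 0.24 (limma adjusted p of 0.3729), and POLR1C, a subunit shared with RNA polymerase III, one of 0.22 (0.2903). UBTF, which binds the promoter and body of rRNA genes, stood at 0.17 (0.3766), and RRN3, which recruits the polymerase to the promoter, at 0.18 (0.3686). MYBBP1A, a nucleolar protein that binds the polymerase, stood at 0.013 (0.9661), and its sign turned in 4 settings. Pseudogenes named after RRN3 summed to between 4.93 and 8.6 TPM, while RRN3 itself was never below 28.17 TPM. The ratio of POLR1A to POLR1B was 2.01 ± 0.291 with CR31B and 1.64 ± 0.233 with DMSO (SD over 4 libraries each, exact permutation p of 0.1143, two-sided). A rise of POLR1A relative to POLR1B was thus not shown, and its ratio to POLR1C was not taken.

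Among assembly factors of the small subunit, all 11 estimates were above 0, with a median of 0.26, and 2 were called. UTP20 (ENSG00000120800.5, chr12:101280109-101386616, plus strand, GRCh38), a very large scaffold protein of the small subunit processome, was at 6.08, 5.45, 6.93 and 5.59 TPM in the CR31B libraries (1 to 4). It was at 4.24, 2.88, 3.93 and 3.58 TPM in the DMSO libraries (1 to 4). UTP20 thus had the lowest DMSO level of the 42 members and did not overlap between groups. Its log2 fold change was 0.59 (SE 0.14, 95% interval from 0.28 to 0.91, limma adjusted p of 0.03008), or 1.51-fold on the scale of TPM + 1. At so low a level the added 1 makes the estimate smaller, and with a pseudocount of 0.1 it was 0.71.

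NOB1 (ENSG00000141101.13, chr16:69741867-69754940, minus strand, GRCh38), the endonuclease that makes the last cut at the 3′ end of 18S rRNA, was at 60.66, 45.08, 47.35 and 48.32 TPM in the CR31B libraries (1 to 4). In the DMSO libraries (1 to 4) it was at 40.08, 31.39, 31.99 and 35.5 TPM. Replicate 1 was the highest in each group, and the groups did not overlap. CR31B minus DMSO gave a log2 difference of 0.52 (SE 0.13, 95% interval from 0.23 to 0.81, limma adjusted p of 0.03586), or 1.43-fold. An antisense gene that shares exon bases with NOB1, AC092115.3, was listed at no more than 0.23 TPM in any library.

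WDR43 (ENSG00000163811.12, chr2:28894643-28948222, plus strand, GRCh38), a processome protein that also binds rRNA genes, was close to the threshold. It was at 77.81, 67.37, 93.22 and 69.87 TPM in the CR31B libraries (1 to 4) and at 55.26, 54.05, 51.71 and 61.61 TPM in the DMSO libraries (1 to 4). The groups did not overlap, and CR31B replicate 3 stood highest. Its log2 fold change was 0.45 (SE 0.13, 95% interval from 0.18 to 0.73, limma adjusted p of 0.0541), and it was called in 3 of the 16 alternative settings, among them the rescaling over protein-coding genes (0.0226).

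RRP12, a carrier of pre-40S particles out of the nucleus, was at 10.81, 8.89, 8.84 and 8.76 TPM in the CR31B libraries (1 to 4) and at 8.55, 6.23, 6.52 and 8.33 TPM in the DMSO libraries (1 to 4). The groups were separate by a small margin, and CR31B replicate 1 was far from the other 3. On the log2 scale the difference was 0.30 (95% confidence interval -0.0038 to 0.61, limma adjusted p of 0.2195). TSR1, a GTPase-like factor of the late pre-40S particle, also did not overlap between groups (28.17 ± 2.63 TPM in CR31B, 23.71 ± 2.68 TPM in DMSO, SD, n = 4 each, limma adjusted p of 0.2644). The estimates of NOP14 (0.27), UTP3 (0.26), EMG1 (0.25), HEATR1 (0.19), UTP4 (0.12) and BYSL (0.071) were not called, with limma adjusted p from 0.2 for NOP14 to 0.838 for BYSL. EMG1 methylates 18S rRNA, BYSL accompanies the pre-40S particle, and the other 4 are processome proteins.

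**Figure D2:**
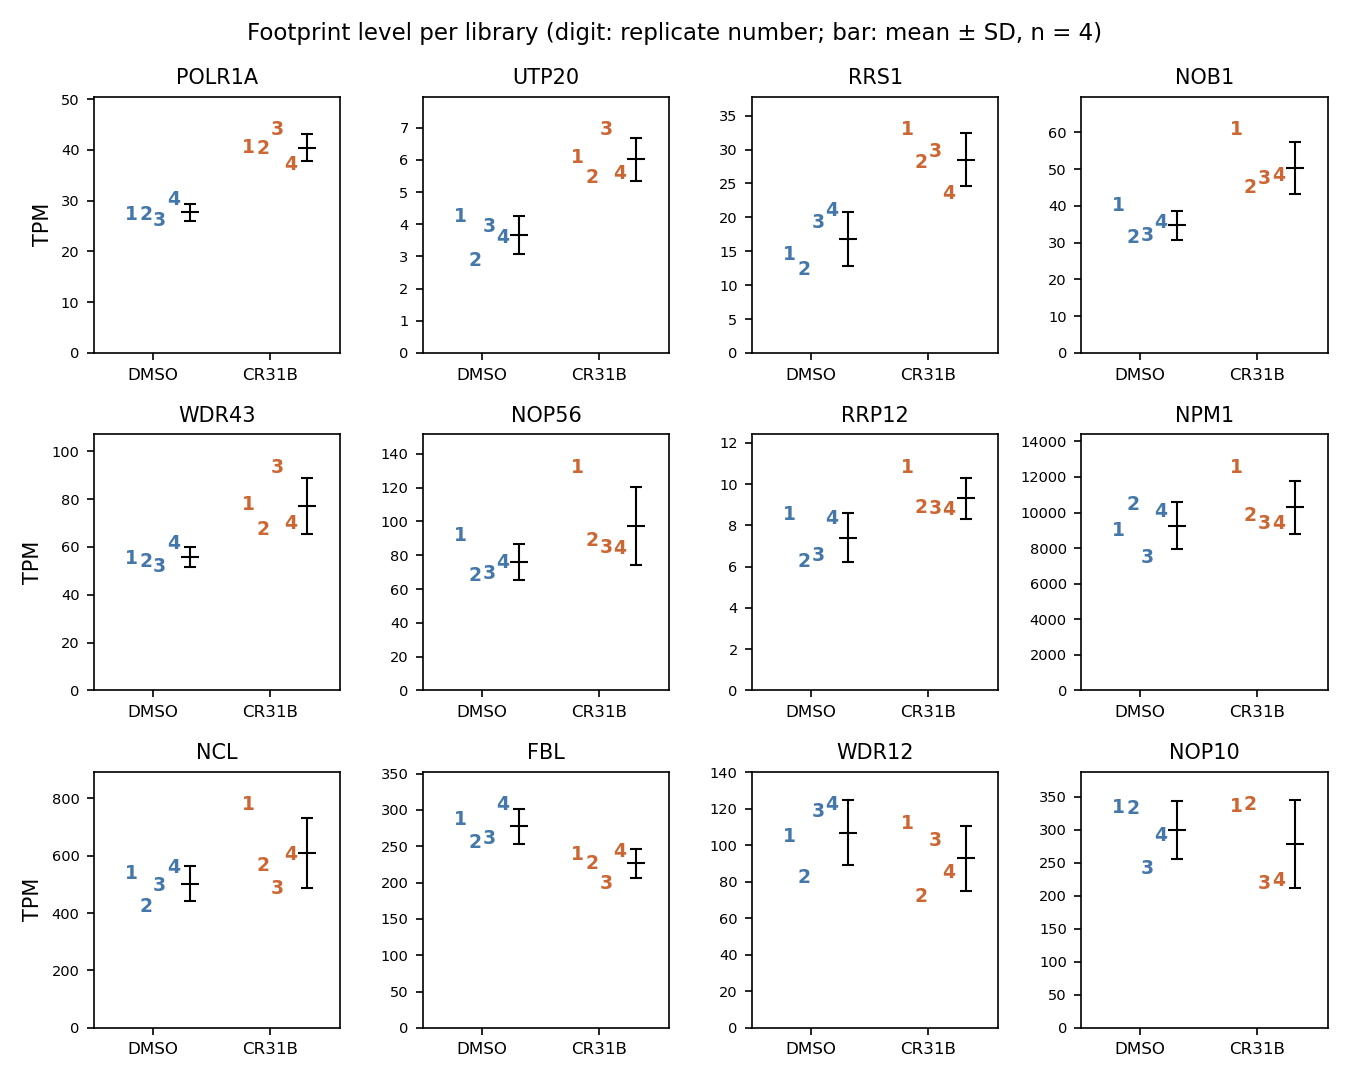
TPM (y axis, from 0) of 12 members in the DMSO and CR31B libraries; each digit is 1 library with its replicate number, and bars are mean ± SD (n = 4). POLR1A, UTP20, RRS1, NOB1, WDR43 and RRP12 lie higher in every CR31B library, FBL lies lower in every CR31B library, and NOP56, NPM1, NCL, WDR12 and NOP10 overlap.

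In the large subunit group 10 of 13 estimates were above 0, the median was 0.15, and 1 member was called. RRS1 (ENSG00000179041.4, chr8:66429028-66430733, plus strand, GRCh38), which brings the 5S rRNA particle into the pre-60S subunit, was at 32.9, 28.05, 29.7 and 23.45 TPM in the CR31B libraries (1 to 4). It was at 14.58, 12.38, 19.24 and 21.04 TPM in the DMSO libraries (1 to 4). Its groups were separate, and it had the highest log2 fold change of the members, at 0.75 (SE 0.17, 95% interval from 0.36 to 1.13, limma adjusted p of 0.02839), or 1.68-fold. The 2 groups came closest in replicate 4, where CR31B and DMSO differed the least. A gene that shares its exon on the same strand, AC009879.2, was listed at 0 in all libraries.

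PES1, BOP1 and WDR12 form 1 complex that is needed to process the 28S precursor, and their estimates had different signs. PES1 had a log2 fold change of 0.19 (limma adjusted p of 0.5334), BOP1 one of 0.18 (0.5342) and WDR12 one of -0.20 (0.511). WDR12 was at 111.8, 72.26, 102.8 and 85.17 TPM in the CR31B libraries (1 to 4) and at 104.8, 82.55, 118.5 and 122.2 TPM in the DMSO libraries (1 to 4), with wide overlap. Relative to BOP1, however, WDR12 stood at 2.26, 2.08, 2.84 and 2.02 in the CR31B libraries (1 to 4) and at 2.94, 3.04, 3.02 and 2.99 in the DMSO libraries (1 to 4). That ratio was lower in every CR31B library (exact permutation p of 0.02857, two-sided, the smallest that 4 against 4 allows), and its adjusted value over the 13 ratios computed within complexes was 0.1857. The ratio of PES1 to BOP1 was 2.03 ± 0.328 with CR31B and 2.02 ± 0.302 with DMSO (SD over 4 libraries each; exact permutation p of 1).

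EBNA1BP2, a scaffold of early pre-60S particles, was at 90.52, 75.34, 106.6 and 73.9 TPM in the CR31B libraries (1 to 4) and at 91.86, 91.76, 71.81 and 97.81 TPM in the DMSO libraries (1 to 4). The values interleave, and the log2 fold change was -0.034 (95% confidence interval -0.36 to 0.30, limma adjusted p of 0.92). The rRNA methyltransferase NOP2 (0.26), RRP1B (0.19), NOP16 (0.15), the GTPases GNL2 (0.15) and GNL3 (0.052), the Brix domain proteins BRIX1 (0.090) and PPAN (0.062), and NIP7 (-0.0051) were not called either. Of these values, the signs of GNL3, PPAN, BRIX1, NIP7 and EBNA1BP2 turned under at least 1 alternative setting. PPAN shares exons with the readthrough gene PPAN-P2RY11, which was listed at no more than 0.35 TPM.

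The 4 proteins of box C/D snoRNPs did not all point the same way: 3 estimates were above 0 and that of FBL was below. FBL (ENSG00000105202.9, chr19:39834458-39846414, minus strand, GRCh38), fibrillarin, is the methyltransferase of box C/D snoRNPs. It was at 238.1, 226.1, 198.6 and 243.2 TPM in the CR31B libraries (1 to 4) and at 286.4, 254.8, 260.9 and 306.8 TPM in the DMSO libraries (1 to 4). FBL was lower in every CR31B library, and it is the one member with that pattern. Its difference on the log2 scale was -0.29 (SE 0.11, 95% interval from -0.54 to -0.037), and with a limma adjusted p of 0.1553 (0.06396 with the replicate block) it was not called.

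NOP56 (ENSG00000101361.17, chr20:2652145-2658393, plus strand, GRCh38), which pairs with NOP58 to hold the box C/D RNA, was at 132, 89.03, 84.36 and 84.06 TPM in the CR31B libraries (1 to 4) and at 91.42, 67.78, 69.26 and 75.83 TPM in the DMSO libraries (1 to 4). It was higher in CR31B in each replicate pair, but the groups overlapped and CR31B replicate 1 stood apart. Its log2 fold change was 0.34 (SE 0.16, 95% interval from -0.030 to 0.70, limma adjusted p of 0.2536). NOP58 (0.11, 0.735) and RRP9, a protein of the U3 snoRNP (0.092, 0.7619), were not called.

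Because FBL and NOP56 sit in the same particle, their ratio was taken within each library, where scaling cancels. The ratio of FBL to NOP56 was 1.8, 2.54, 2.35 and 2.89 in the CR31B libraries (1 to 4) and 3.13, 3.76, 3.77 and 4.05 in the DMSO libraries (1 to 4). All CR31B libraries lay below all DMSO libraries, with means of 2.4 ± 0.455 and 3.68 ± 0.386 (SD over 4 libraries each; exact permutation p of 0.02857, two-sided, the smallest possible; 0.1857 adjusted over 13 ratios). For FBL to NOP58 the means were 3.77 ± 0.822 and 4.88 ± 0.203, and CR31B replicate 2 at 4.63 overlapped with DMSO replicate 1 at 4.62 (exact permutation p of 0.05714, adjusted 0.1857). No ratio passed after adjustment. None could have passed unless most of the 13 had reached the smallest possible p, so the adjusted values do not decide whether a ratio differed.

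**Figure D3:**
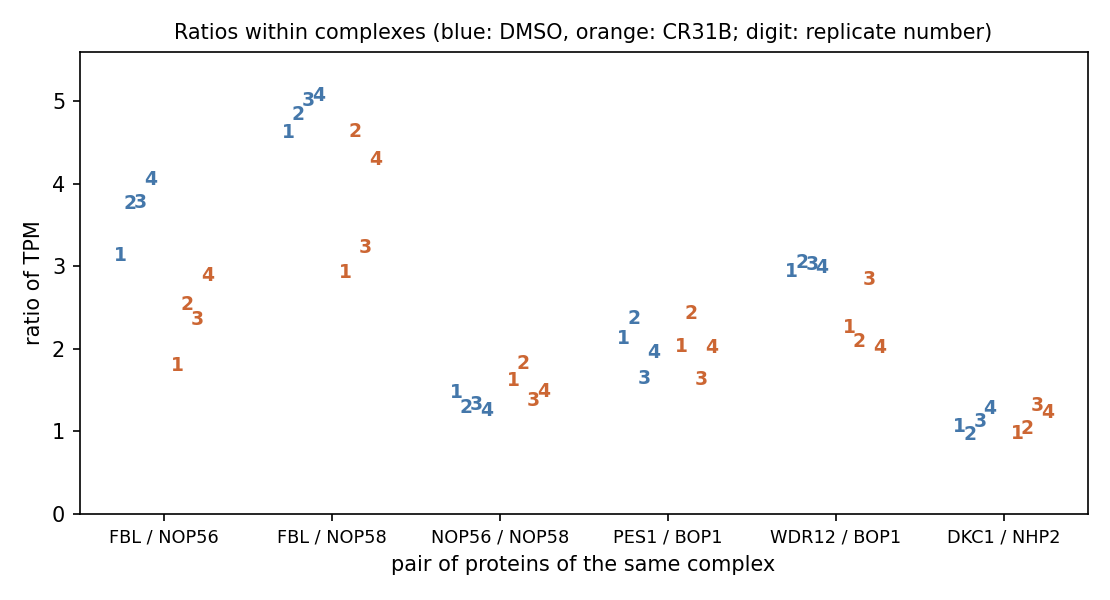
Ratio of TPM (y axis, from 0) for 6 pairs of proteins of the same complex (x axis), per library; blue digits are DMSO and orange digits CR31B, each with its replicate number. FBL to NOP56 and WDR12 to BOP1 are lower in every CR31B library, whereas PES1 to BOP1 and DKC1 to NHP2 interleave.

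Box H/ACA snoRNPs, which convert uridine to pseudouridine, showed no called change among 4 members. DKC1, the pseudouridine synthase, was at 203.8 ± 18.73 TPM with CR31B and 171.5 ± 16.12 TPM with DMSO (SD over 4 libraries each), a log2 fold change of 0.25 (limma adjusted p of 0.2331), and was higher in 4 of 4 pairs. Its partners GAR1 (0.22, 0.3224) and NHP2 (0.20, 0.3822) had similar estimates. NOP10, a short structural subunit, was at 335.7, 337.5, 219.2 and 223.1 TPM in the CR31B libraries (1 to 4) and at 333.3, 332, 241.8 and 291 TPM in the DMSO libraries (1 to 4). In both groups replicates 1 and 2 lay above replicates 3 and 4, and the log2 fold change was -0.12 (95% confidence interval -0.52 to 0.28, limma adjusted p of 0.7397).

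Footprint levels of the 4 H/ACA proteins were unequal. In DMSO, NOP10 was at 299.5 ± 43.22, DKC1 at 171.5 ± 16.12, NHP2 at 156.5 ± 15.92 and GAR1 at 31.43 ± 4.06 TPM (SD, n = 4). DKC1 and NHP2 overlapped, with a ratio of 1.1 ± 0.131, while DKC1 was 5.55 ± 0.995 times GAR1. The ratio of DKC1 to GAR1 was 5.6 ± 0.885 in CR31B (exact permutation p of 0.9429, two-sided).

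NPM1 (ENSG00000181163.14, chr5:171387116-171411137, plus strand, GRCh38), nucleophosmin, a histone-binding chaperone of the granular part of the nucleolus, had by far the highest level. It was at 12533.76, 9842.41, 9363.04 and 9396.68 TPM in the CR31B libraries (1 to 4) and at 9015.86, 10455.54, 7480.86 and 10062.2 TPM in the DMSO libraries (1 to 4). The groups overlapped, and only CR31B replicate 1 lay above all DMSO libraries. CR31B minus DMSO gave a log2 difference of 0.15 (SE 0.18, 95% interval from -0.25 to 0.55, limma adjusted p of 0.6622) and its sign turned with quantile normalization. The 45 pseudogenes named after NPM1 together held from 11.86 to 16.89 TPM per library.

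NCL (ENSG00000115053.17, chr2:231453531-231483641, minus strand, GRCh38), nucleolin, which binds the rRNA precursor and the chromatin of rRNA genes, was at 776.3, 566.4, 485.7 and 604.3 TPM in the CR31B libraries (1 to 4) and at 536.8, 421, 495.1 and 558 TPM in the DMSO libraries (1 to 4). The ranges overlapped, and replicate 3 differed in direction from the other 3 pairs. On the log2 scale the difference was 0.26 (SE 0.16, 95% interval from -0.092 to 0.61, limma adjusted p of 0.361). NOLC1, a chaperone of snoRNPs, had an estimate of 0.26 (0.4425) and LYAR, a zinc finger protein of the nucleolus, one of 0.20 (0.4253).

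Levels of the 42 factors spanned from 3.66 TPM for UTP20 to 9253.62 TPM for NPM1 in DMSO. The median member was at 42.06 TPM, against 8.89 TPM for all genes tested, and 9 members were in the top 10% of the tested genes. NPM1 and NCL (502.7 TPM) came first, followed by NOP10, FBL (277.2 TPM), DKC1, NHP2 and WDR12 (107 TPM), which completed the 7 members over 100 TPM. A further 32 lay between 10 and 100 TPM, and RRP1B (7.79 TPM), RRP12 (7.41 TPM) and UTP20 were below 10 TPM. In this order 35 of the 41 pairs of neighbours overlapped between DMSO libraries, so ranks in the middle of the list do not separate genes. All members together took 1.633%, 1.291%, 1.226% and 1.253% of TPM in the CR31B libraries (1 to 4) and 1.214%, 1.316%, 1.019% and 1.323% in the DMSO libraries (1 to 4), and most of that was NPM1. The mean difference of 0.13 percentage points was within the spread of the libraries, and was 0.038 without CR31B replicate 1 and 0.066 without DMSO replicate 3. As a share of protein-coding TPM, the members took 2.48% ± 0.138 with CR31B and 2.19% ± 0.207 with DMSO (SD over 4 libraries each), a difference of 0.29 percentage points.

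Libraries of 1 group differed in many members at once. Within CR31B, replicate 1 held the highest value of 30 members and the lowest of 0. Within DMSO, replicate 4 held the highest of 22 and replicate 2 the lowest of 24. Relative to the DMSO mean, the median member stood at 0.41, 0.12, 0.10 and 0.21 on the log2 scale in the CR31B libraries (1 to 4) and at 0.095, -0.16, -0.082 and 0.13 in the DMSO libraries (1 to 4), so the groups overlapped. CR31B replicate 1 was also the library with 61.3% of TPM in protein-coding genes, whose median there was 0.14. After subtraction of the protein-coding median, the members stood at 0.27, 0.20, 0.039 and 0.23 in CR31B and at 0.051, -0.099, -0.063 and 0.10 in DMSO. On that scale replicate 1 no longer stood apart from CR31B replicates 2 and 4, and CR31B replicate 3 overlapped with DMSO. Without CR31B replicate 1, 31 of 42 estimates were above 0 (of all genes tested, 5811 of 11778), the median was 0.13 and 1 member was called higher (POLR1A), while 2.49% of all genes were.

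**Figure D4:**
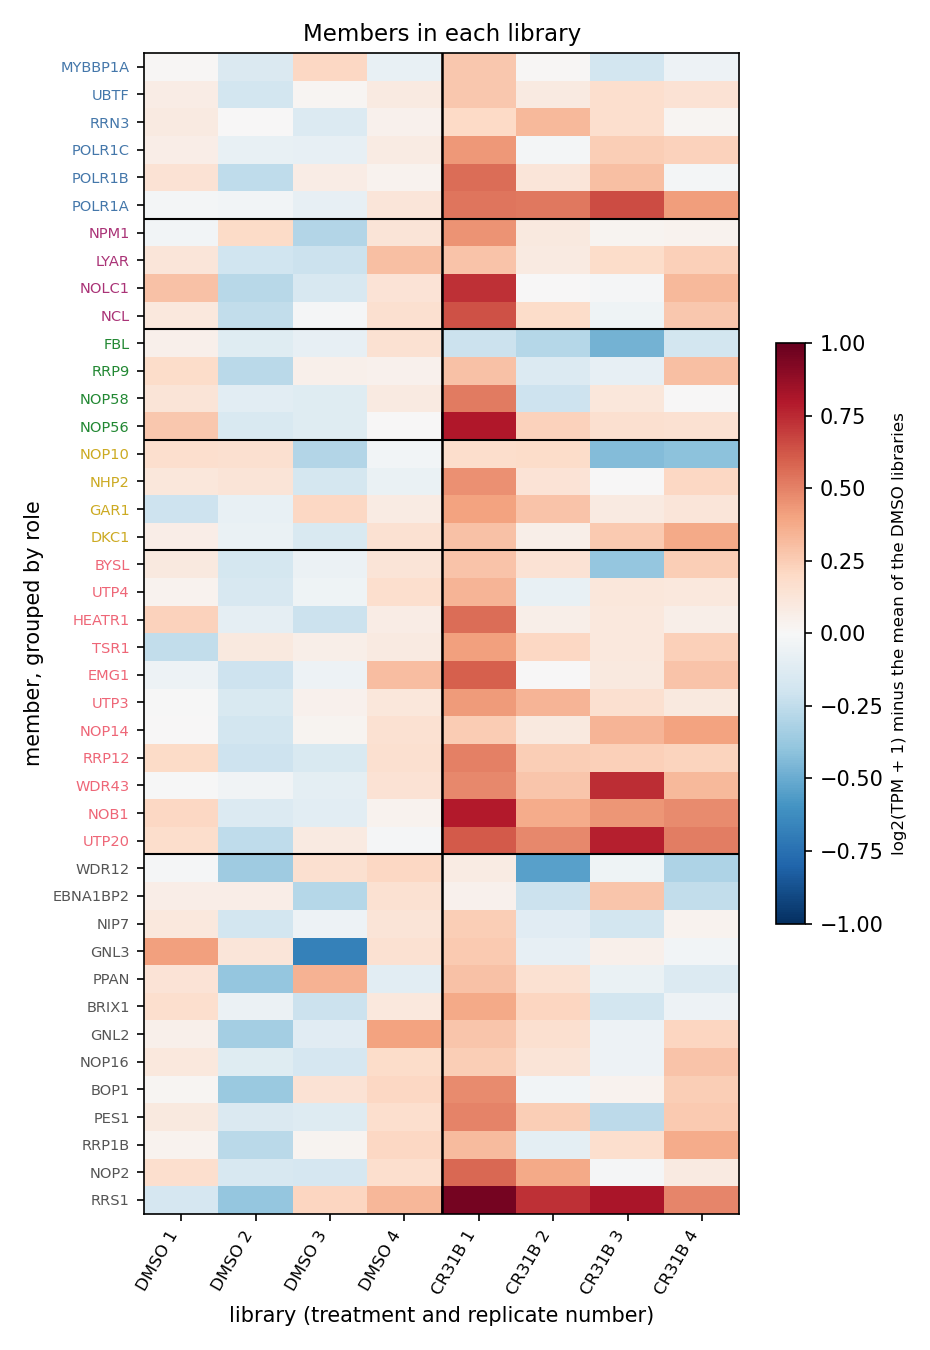
Level of each member (rows, grouped by role) in each library (columns) as log2(TPM + 1) minus the mean of the 4 DMSO libraries; red is higher and blue lower. CR31B replicate 1 is the reddest column, with the highest CR31B value of 30 members. RRS1, UTP20, NOB1, WDR43 and POLR1A are red in all CR31B columns, as are other members, among them RRP12, NOP56 and DKC1. FBL is blue in all CR31B columns.

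Promoter sequence was not used in the choice of the members. The set was however described from the start as holding many MYC targets, so its share of MYC motifs is not independent of the choice. RefSeq windows from 250 bases before to 50 after the transcript start (GRCh38.p14) were at hand for 36 members, and 16 of these (44.44%) held CACGTG, the E-box that MYC proteins bind, a palindrome that reads alike on both strands. Of 8439 other tested protein-coding genes, 13.37% held it. It was found in 37.78% of the members' 45 windows, in 7.256% of all 35116 windows, and in 9.723% of the windows of other tested protein-coding genes. Of 5 members printed here, UTP20 (called), WDR43 and FBL (not called) held it close to the start, and POLR1A and NOB1 (called) did not. Each line runs from 150 bases before to 30 after the RefSeq start, and capitals mark CACGTG. The windows are chr12:101279955-101280134 (plus strand), chr2:28894517-28894696 (plus), chr19:39846350-39846529 (minus), chr2:86105857-86106036 (minus) and chr16:69754897-69755076 (minus), in the order shown.
UTP20: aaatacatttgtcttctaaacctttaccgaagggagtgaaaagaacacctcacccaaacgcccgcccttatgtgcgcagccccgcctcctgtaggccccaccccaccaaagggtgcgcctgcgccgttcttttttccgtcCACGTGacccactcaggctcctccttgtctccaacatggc
WDR43: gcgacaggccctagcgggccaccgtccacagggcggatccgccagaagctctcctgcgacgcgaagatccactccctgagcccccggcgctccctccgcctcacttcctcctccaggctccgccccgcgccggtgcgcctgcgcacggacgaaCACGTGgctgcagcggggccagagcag
FBL: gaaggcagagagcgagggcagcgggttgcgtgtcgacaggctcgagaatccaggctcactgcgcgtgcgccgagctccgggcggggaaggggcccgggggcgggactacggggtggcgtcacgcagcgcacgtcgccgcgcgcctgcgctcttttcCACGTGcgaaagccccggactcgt
POLR1A: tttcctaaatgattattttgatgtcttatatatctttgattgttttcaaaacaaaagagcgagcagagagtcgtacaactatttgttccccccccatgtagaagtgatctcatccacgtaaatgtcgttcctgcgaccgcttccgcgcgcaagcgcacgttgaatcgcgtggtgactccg
NOB1: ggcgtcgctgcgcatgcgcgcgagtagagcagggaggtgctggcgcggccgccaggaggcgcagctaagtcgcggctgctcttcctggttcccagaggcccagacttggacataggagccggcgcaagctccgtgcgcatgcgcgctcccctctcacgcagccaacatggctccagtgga
The first base of CACGTG is at position -10 in UTP20, at 4 in WDR43 and at 7 in FBL, counted from the start as 1. The median log2 fold change was 0.14 for the 16 members with the motif and 0.21 for the 20 without it. A match of these letters describes the sequence and does not show binding.

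Transcript starts were read because mRNAs with a 5′ terminal oligopyrimidine (TOP) tract are a known class of growth-regulated mRNAs. A start with C followed by at least 4 pyrimidines (C or T) was found for 4 of the 36 members (11.11%), against 8.022% of other tested protein-coding genes. The 4 were FBL, NPM1, NOB1 and EBNA1BP2, given here with NCL and NOP56, which lack it at the RefSeq start. These are annotated starts, and the starts used in these cells were not measured. Each line gives the first 20 bases from the RefSeq start, with the tract in capitals.
FBL: CTTTTCCacgtgcgaaagcc
NPM1: CTTTCCCTggtgtgattccg
NOB1: CTCTCacgcagccaacatgg
EBNA1BP2: CCTCCCCCggggtcctcctc
NCL: agtctcgagctctcgctggc
NOP56: attgcgagccgaacccggga
Their log2 fold changes were -0.29 (FBL), 0.15 (NPM1), 0.52 (NOB1) and -0.034 (EBNA1BP2) with the tract and 0.26 (NCL) and 0.34 (NOP56) without it. The 4 genes with a tract therefore included both the lowest estimate of all members and 1 of the 4 called rises. In FBL the last base of the tract is the first base of CACGTG.

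Leaders and coding sequences of 1 transcript per gene (GENCODE release 29) were compared with those of 10084 other tested protein-coding genes. For 41 members with an annotated leader, its median length was 189 nt, against 206 nt, and its median GC content 63.79%, against 66.49%. AGAGAG or GAGAGA on the sense strand, a purine repeat of the kind to which rocaglates clamp eIF4A, occurred in 12 of the 41 leaders (29.27%), against 14.74% of the others. These 12 included 1 of the 4 called members, POLR1A (log2 fold change 0.53), and also NIP7 (-0.0051). The other called members, UTP20, RRS1 and NOB1, did not hold it. The longest purine run of a leader did not differ in its median, which was 8 nt for the members and 8 nt for the others. Across the 41 members, which share the same 8 libraries, Spearman's rho of log2 fold change with leader length was -0.091 and with coding length 0.40, and over the 10084 other genes it was -0.069 and 0.088.

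Of the 42 genes, 8 contain small nucleolar RNA genes, namely NCL, NOP56, NOP58, DKC1, GNL3, WDR43, TSR1 and PPAN. All 27 of these inner genes were listed at 0 in every library, as were most of the 942 genes of this type in the table, of which 13 were above 0. The median log2 fold change was 0.24 for the 8 host genes and 0.19 for the others. A total of 25 members share exon bases with another annotated gene, 19 of them with a gene on the opposite strand, and whether reads were counted by strand is not given in the sources used here. The opposite-strand partner was of like abundance for 4 members: XPO5 (51.94 to 92.1 TPM) and YIPF3 (46.25 to 61.87 TPM) for POLR1C, CHTF8 (31.53 to 56.34 TPM) for UTP4, HIGD2A (36.47 to 66.65 TPM) for NOP16 and RAD1 (27.83 to 41.7 TPM) for BRIX1. The values of POLR1C, UTP4, NOP16 and BRIX1 are uncertain to that extent. POLR1A and UTP20 share exon bases with no other annotated gene.

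Of 103 other ribosome biogenesis genes, listed without RNA helicases of the DDX and DHX families, all were tested, 79 had an estimate above 0, the median was 0.16, and limma called 6 higher and 0 lower (3.45% and 4.02% of all genes). At an unadjusted p under 0.05, 20 were higher and 1 was lower (12.0% and 11.3% of all genes). In order of size the 6 were WDR36, NOC3L, POLR1D, MAK16, SBDS and KRR1. WDR36, a processome protein, rose from 20.9 ± 1.08 to 36.16 ± 1.4 TPM (SD over 4 libraries each; log2 fold change 0.76, limma adjusted p of 0.002069). POLR1D, a subunit shared by polymerases I and III, rose from 73.77 ± 8.79 to 114.6 ± 20.55 TPM (0.62, limma adjusted p of 0.02675). MAK16 of the early pre-60S particle rose from 106.9 ± 5.54 to 161.6 ± 17.69 TPM (0.59, 0.01192), and NOC3L, also of the pre-60S particle, from 4.88 ± 1.18 to 8.33 ± 1.53 TPM (0.67, 0.0452). SBDS, which helps to release eIF6 from the new 60S subunit, rose from 35.55 ± 3.15 to 50.88 ± 6.00 TPM (0.50, 0.03136). KRR1, a processome protein, had a log2 fold change of 0.50 (limma adjusted p of 0.04916) and was called in 5 of its 16 alternatives. POLR1D was called in 11 of 16, SBDS in 8 of 16 and NOC3L in 8 of 15, whereas WDR36 and MAK16 were called in 16 of 16. Libraries of CR31B and DMSO did not overlap for 17 of the 103 genes that were higher and 1 that was lower, against 8.07% and 8.14% of all genes.

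The calls of UTP20, RRS1 and NOB1 depended on which libraries entered. The number of members called fell from 4 to 1 without CR31B replicate 1, CR31B replicate 3 or DMSO replicate 2, and to 2 without CR31B replicate 4 or DMSO replicate 4. Over all genes the share called higher fell as well, from 3.45% to 2.49%, 2.26% and 2.02% in the first 3 of these fits and to 2.32% and 1.67% in the other 2. No estimate of these 3 genes changed sign, and their limma adjusted p did not exceed 0.1034 in any setting.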

How the data were processed

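Ribosome footprints of 28 to 30 nt from 8 IMR32 libraries (4 CR31B, 4 DMSO) were measured. The values are gene TPM deposited by the authors. Per the submitters' processing notes, cutadapt 3.2, Bowtie2 2.3.4.1, STAR 2.7.1a, RSEM 1.2.28 and DESeq2 1.32.0 were used with GRCh38; the annotation and strand setting are not given in the sources used here. TPM keeps no depth, so the depth per library is unknown and no counting interval is given.

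All 60651 genes entered, and 60481 had a symbol. Log2(TPM + 1) was fitted with limma 3.58.1 (R 4.3.3; lmFit, eBayes with trend) on treatment alone for genes whose mean reached 1 TPM, with Benjamini-Hochberg adjustment over all of them. The fit was tested on simulated data. Ratios within complexes were compared by exact permutation tests (SciPy 1.17.1). These shuffled all 8 libraries without regard to the replicate number, and no paired test of the ratios was run. Promoter windows came from RefSeq (GRCh38.p14), overlaps and leaders from GENCODE release 29.

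Members and lists were chosen with earlier results of these data known. All members are named; values per library are given for NCL, NPM1 and FBL, for called members, and for the 3 highest and 3 lowest of the rest. Of other pathway genes, the 5 called with the highest rise are named, and KRR1 was added after its values were seen. Deviations from group means correlated between libraries with the same replicate number (r = 0.33, 0.32, 0.30 and 0.105 for numbers 1 to 4) and from -0.21 to 0.13 for other pairs. CR31B replicate 4 correlated more with DMSO replicate 1 (0.134) than with its own number. All same-numbered r were above 0.1, but so was that of CR31B replicate 4 with DMSO replicate 1. The numbers, taken from the labels, were treated as pairs in an alternative fit, and the pairing of number 4 is uncertain. Other alternatives were pseudocounts of 0.5 and 0.1, no filter and a minimum mean of 10 TPM, quantile normalization, rescaling over protein-coding genes, no trend, and leaving out each library. A marker gene of the cell type list is not reported here.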

Additional observations from a re-analysis of the deposited data

Results flagged for a closer look

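In 90 groups of 4 libraries, 7 had 1 library far from the other 3 by Dixon's criterion, where chance gives about 1 in 20, or 4.5. Of the 7, 6 were in CR31B replicate 1. In that library NPM1 was at 12533.76 TPM (others 9363.04 to 9842.41), NOP56 at 132 TPM (84.06 to 89.03), HEATR1 at 25.83 TPM (17.97 to 18.61) and RRP12 at 10.81 TPM (8.76 to 8.89). The members' share of TPM there was 1.633% (others 1.226% to 1.291%), and the protein-coding share was 61.3% (51.79% to 52.3%). The other was TSR1 in DMSO replicate 1, at 19.72 TPM (others 24.59 to 25.31). Its part in the non-overlap of TSR1 was not tested.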

How the results depend on the processing

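The members' median stayed between 0.13 and 0.25 when each library was left out, and 33 of 42 members kept their sign in every alternative in which they were tested (16, or 15 for UTP20, RRP12 and RRP1B, which did not reach a mean of 10 TPM). Members called higher numbered 1 with no filter on low values and from 1 to 3 with a library left out. Over all genes, the count higher was 181 with no filter and 670 after rescaling over protein-coding genes, and 197 to 394 with a library left out; the count lower was 261 with no filter and 208 to 486. Other pathway genes called higher numbered 2, 11 and from 2 to 5 in the same order. With the replicate block, pairing libraries by number, 680 genes were higher and 773 lower, and no member's call changed. Signs reversed for NPM1 (-0.15) and MYBBP1A (-0.019) with quantile normalization, and for EBNA1BP2 (2.2e-05) and NIP7 (0.029) after rescaling. Without CR31B replicate 1 they reversed for MYBBP1A (-0.073), NOP58 (-0.031), BYSL (-0.00058), GNL3 (-0.018), PPAN (-0.016) and BRIX1 (-0.0077). Other reversals were MYBBP1A (-0.035) and PPAN (-0.066) without DMSO replicate 2, GNL3 (-0.175) without DMSO replicate 3, and MYBBP1A (-0.012) without DMSO replicate 4. EBNA1BP2 reversed without CR31B replicate 2 (0.026), CR31B replicate 4 (0.036) or DMSO replicate 4 (0.017), and NIP7 without CR31B replicate 2 (0.030), CR31B replicate 3 (0.055), DMSO replicate 1 (0.030) or DMSO replicate 4 (0.038). With 1 library left out, the values of those that reversed reached 0.08215 (MYBBP1A), 0.2118 (NOP58), 0.224 (BYSL), 0.1872 (GNL3), 0.1785 (PPAN) and 0.1798 (BRIX1) at the highest, and -0.1388 (EBNA1BP2) and -0.08788 (NIP7) at the lowest. With no filter and with a library left out, more genes or fewer samples enter; for the other settings the cause was not tested.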
